A study of Mus musculus with 15 samples.

Results

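Nitric oxide signals through cyclic GMP. A nitric oxide synthase makes the gas, which diffuses and binds the heme of soluble guanylate cyclase, an enzyme built of 1 alpha and 1 beta subunit, and the enzyme then converts GTP to cyclic GMP. Cyclic GMP acts on cGMP-dependent protein kinases and on ion channels, and phosphodiesterases break it down. In the mature cortex neuronal nitric oxide synthase is known as a marker of a set of inhibitory interneurons that arise in the medial ganglionic eminence (MGE), many of which also make somatostatin.

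The 10 genes described here are the subunit genes Gucy1a1, Gucy1a2 and Gucy1b1, the synthase gene Nos1 and its adaptor gene Nos1ap, the kinase genes Prkg1 and Prkg2, and the phosphodiesterase genes Pde9a, Pde5a and Pde1a. They were found by symbol, and all 10 were present among the 26835 genes of the Lhx6 table and the 25714 genes of the Mtg8 table. Gucy1a1 was chosen by its measured log2 difference between Lhx6 mutant and control embryos, so its values in that comparison are given below as a description without a test. The other 9 were taken for their place in the pathway, with earlier results of these data already known, so their p-values are descriptive. The question was whether Gucy1a1 was lower alone or together with its partners.

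RNA was sequenced from 15 single E14.5 mouse embryos, on a mixed C57BL6/CBA background. In all of them Nkx2-1-Cre and R26R-YFP marked cells of the MGE lineage, and YFP+ cells were sorted from the cortex, so the libraries hold migrating MGE-derived interneurons and whatever else passed the sort. The Lhx6 table holds 4 controls (Lhx6+/+) and 5 mutants (Lhx6-/-, a germline null allele derived from a floxed line). The Mtg8 table holds 3 controls (Mtg8+/+) and 3 libraries labelled Mtg8 mutant (Mtg8-/-). LHX6 is the LIM homeodomain factor of MGE-derived interneurons, and MTG8 is a transcriptional corepressor encoded by Runx1t1. Because every tissue of a null embryo lacks the gene, the measurements do not separate effects within the sorted cells from effects of their surroundings. In sorted bulk RNA, fewer cells of a kind and less RNA per cell cannot be told apart.

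Library depth ran from 12218422 to 22053032 reads. Lhx6 mRNA in the Lhx6 mutants was 4.57% of its control mean. Runx1t1 was not lower in the libraries labelled Mtg8 mutant, at 13934, 12250 and 12352 normalized counts against 7938, 10265 and 8470 in the controls, so its mRNA did not check that label. The study's methods list a LacZ knock-in line for this gene, and counts per gene do not show whether reads come from such an allele. In the same libraries Sst was at 39.6% and Npy at 47.1% of the control mean. Values below are normalized counts, that is reads divided by the size factor of each library, and the 2 tables were normalized separately. Log2 differences are between group means of log2(normalized count + 1), with a standard error (SE). Adjusted p-values are from limma with Benjamini-Hochberg adjustment over all genes of a table with a mean of at least 10, and a gene was called at an adjusted p under 0.05.

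Gucy1a1 and Gucy1b1, which encode the alpha 1 and beta 1 subunits, lie side by side on the minus strand of chromosome 3. Gucy1a1 (ENSMUSG00000033910.13) occupies chr3:82092427-82145789 and Gucy1b1 (ENSMUSG00000028005.13) chr3:82032006-82074689 in GRCm38, and their start sites are 71.1 kb apart. No exon of either overlaps an exon of another gene in the tables. As these are the 2 members whose levels differed between Lhx6 genotypes, the sequences before their RefSeq start sites are shown from GRCm38.p6, 5′ to 3′ on the minus strand. For Gucy1b1 these are the 250 bases of chr3:82074712-82074961. For Gucy1a1 they are the 111 bases of chr3:82145790-82145900 that precede its outermost exon in the table, and capitals mark CCAAT read on either strand.
Gucy1a1: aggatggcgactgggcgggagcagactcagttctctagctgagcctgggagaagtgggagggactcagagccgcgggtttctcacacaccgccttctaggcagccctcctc
Gucy1b1: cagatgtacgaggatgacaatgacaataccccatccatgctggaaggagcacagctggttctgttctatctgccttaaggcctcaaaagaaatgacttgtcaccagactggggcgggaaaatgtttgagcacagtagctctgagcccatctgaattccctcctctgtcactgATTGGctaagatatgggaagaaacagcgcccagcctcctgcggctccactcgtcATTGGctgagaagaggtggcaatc
The Gucy1b1 stretch holds CCAAT at 2 places, both on the opposite strand and thus printed as ATTGG, and the Gucy1a1 stretch does not hold it. CCAAT on either strand was in 33.8% of all 32851 RefSeq windows of 250 bases before a start site. TAATTA, a core that LIM homeodomain proteins can bind, was in neither stretch and in 4.84% of all windows. As the Gucy1a1 stretch is shorter than those windows, its full windows of 250 bases were read as well, and at both of its RefSeq start sites they hold neither motif. RefSeq windows were found for 8 of the 10 genes, with 14 start sites, of which 6 held CCAAT and 0 held TAATTA.

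In Lhx6 mutants Gucy1a1 was at 5.15% of its control level, and Gucy1b1 fell to 41.3%. No other member passed the test. Leaving Gucy1a1 aside, the call rule took 1 of the other 9 members, lower, where it took 1.71% of the 16727 genes tested (0.682% lower), and nothing about the list is read from a single call. DESeq2 and edgeR's quasi-likelihood test also called Gucy1b1 alone among these 9, while they called 4.78% and 1.67% of all genes. The median log2 difference over the 9 was -0.27, against -0.04 over all genes tested, with 6 below zero and 3 above, where 53.4% of all genes were below zero.

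**Figure D1:**
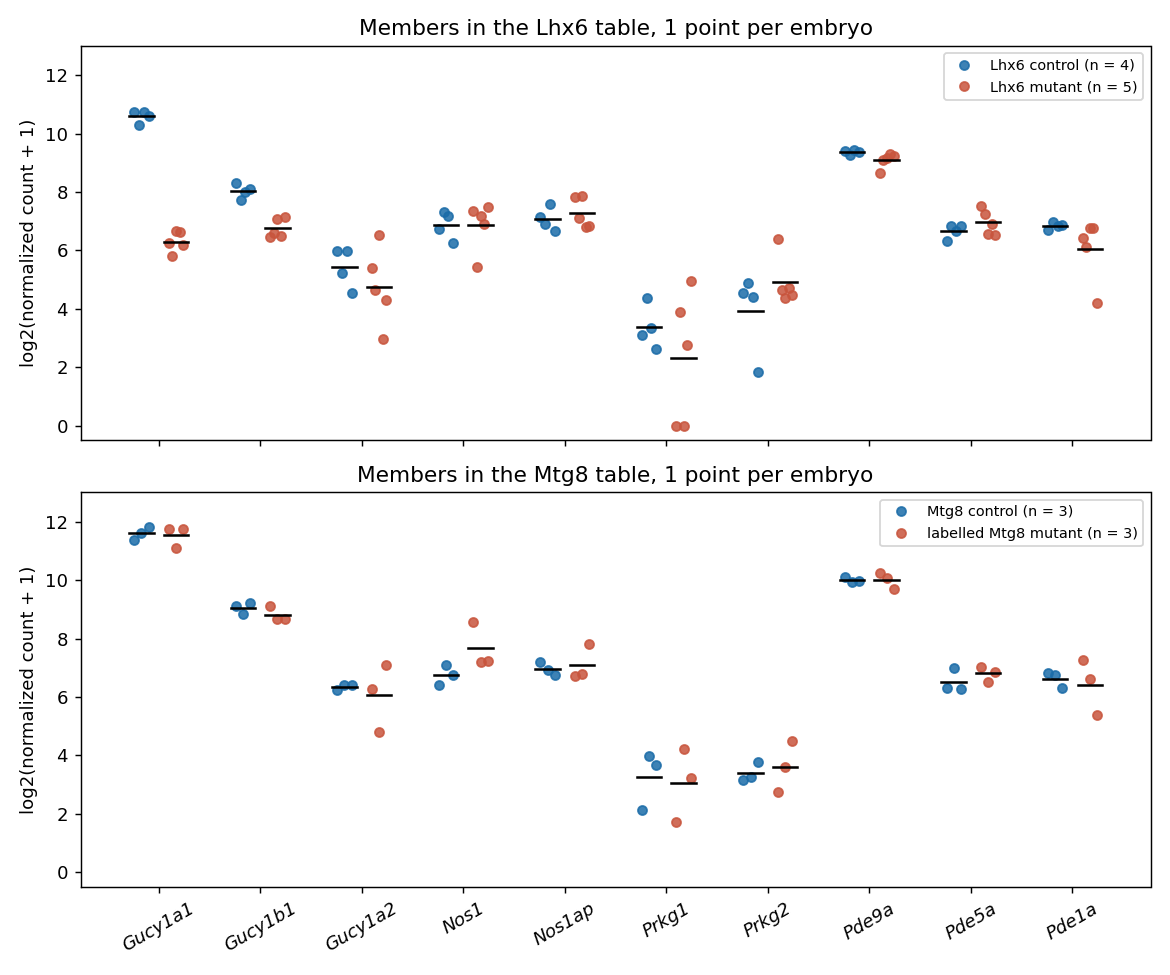
Level of each member in every embryo of the Lhx6 table (top) and the Mtg8 table (bottom), as log2(normalized count + 1), with 1 point per embryo and a bar at the group mean. The Lhx6 mutants lie below all controls for Gucy1a1 and Gucy1b1, and for the other members the Lhx6 groups overlap.

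The Gucy1a1 level in Lhx6 controls 1 to 4 was 1701, 1247, 1701 and 1553 normalized counts. In Lhx6 mutants 1, 2, 3, 5 and 6 it was 75.5, 54.6, 99.7, 97.8 and 71.8. The 2 sets lay far apart, with the lowest control at 12.5 times the highest mutant. Controls averaged 1550 ± 214 (SD, n = 4), mutants 79.9 ± 19.0 (SD, n = 5), with a log2 difference of -4.28 (SE 0.21), the 10th lowest of the 16727 genes tested. The transcript was not lost altogether, since 58 to 107 reads per mutant library fell on Gucy1a1, against 1407 to 1846 per control. In the single mutant that shares a code in its library name with controls 1 and 2, the log2 difference to those controls was -4.32.

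Gucy1b1 carries the heme-binding subunit that all forms of the enzyme with alpha 1 or alpha 2 need. Its level in the Lhx6 controls was 318, 209, 255 and 275 normalized counts, and in the mutants it was 86.6, 96.3, 132, 90.1 and 140. Every mutant was below every control, a separation that 6.22% of all genes tested showed, and 3.03% in this direction. Controls averaged 264 ± 45.2 (SD, n = 4) and mutants 109 ± 25.1 (SD, n = 5), giving a log2 difference of -1.28 (SE 0.23, adjusted p = 0.0110 by limma, 0.00910 by edgeR and 2.85e-06 by DESeq2). The call was lost without control 1 (log2 difference -1.19, adjusted p = 0.0640 by limma) and without control 4 (-1.26, adjusted p = 0.0544 by limma). It was also lost with the style of the library names as a covariate (log2 difference -0.90, adjusted p = 0.769 by limma). In that fit dated names are carried by 4 of the mutants and no control, and its genotype difference rests on mutant 6 alone. Within the shared library code the log2 difference was -0.88.

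Gucy1a2 encodes the alpha 2 subunit, which can pair with beta 1 in place of alpha 1 (ENSMUSG00000041624, chr9:3532778-3894736, plus strand). Controls had 61.5, 36.3, 62.6 and 22.2 normalized counts and mutants 40.8, 24.1, 91.3, 6.78 and 18.57. Mutant 3 was the highest of all 9 embryos and mutant 5 the lowest, and the groups overlapped. With a log2 difference of -0.67 (95% interval -2.03 to 0.70, adjusted p = 0.667 by limma), the interval ran from 24.5% to 162% of control. The value was -0.22 without mutant 5, -1.11 without mutant 3 and -0.33 by DESeq2.

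Compared per kb of annotated exon length, alpha 1 was the main alpha subunit mRNA of control cells. In Lhx6 controls Gucy1a1 stood at 222 normalized counts per kb, Gucy1b1 at 67.3 and Gucy1a2 at 6.87. The ratio of Gucy1a1 to Gucy1b1 per kb was 3.01, 3.36, 3.76 and 3.19 in the 4 controls. In the 5 mutants it was 0.491, 0.320, 0.425, 0.612 and 0.289, so per kb the beta 1 mRNA was above that of alpha 1 in every mutant and in no control. This crossing depends on the lengths used, 6968 bases for Gucy1a1 and 3927 for Gucy1b1. In normalized counts mutant 5 had 97.8 for Gucy1a1 and 90.1 for Gucy1b1, while Gucy1a1 was the lower in the other mutants. The mean ratio per kb was 3.33 ± 0.318 (SD, n = 4) without the mutation and 0.427 ± 0.131 (SD, n = 5) with it. Adding alpha 2 did not bring the alpha subunits back above beta 1 per kb. On that scale the ratio of both alpha mRNAs to Gucy1b1 was 0.368 to 0.832 in the mutants and 3.13 to 3.90 in the controls. The alpha 1 share of alpha subunit mRNA averaged 97.0% ± 1.04 over the 4 controls (SD) and 71.0% ± 15.9 over the 5 mutants (SD). These ratios hold Gucy1a1, whose level chose the list, and are given without a test.

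**Figure D2:**
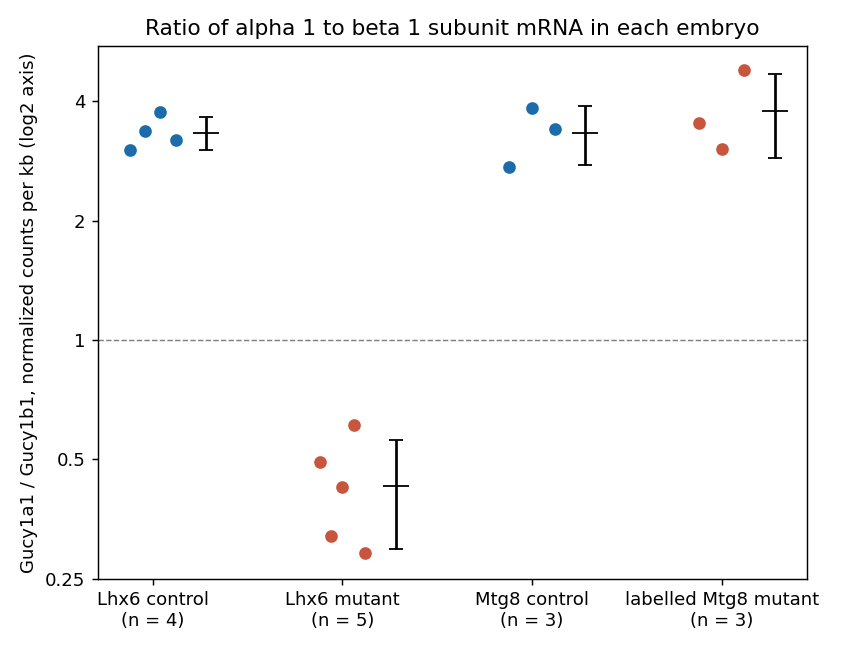
Ratio of Gucy1a1 to Gucy1b1 in normalized counts per kb for each embryo, on a log2 axis, with group means and SD as bars and a dashed line at equal levels. The Lhx6 mutants, between 0.289 and 0.612, lie below the line, and the embryos of the other 3 groups lie between 2.74 and 4.80.

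The genes for the gas-producing enzyme and its adaptor did not pass the test in Lhx6 mutants. Nos1, the neuronal nitric oxide synthase (chr5:117781032-117958840, plus strand), was at 105, 159, 145 and 75.3 normalized counts in controls. In mutants it was at 161, 42.6, 143, 118 and 178. The mutants spanned the whole control range, with mutant 2 below it and mutants 1 and 6 above it. Between the means the log2 difference was -0.0023 (95% interval -0.87 to 0.86, adjusted p = 0.998 by limma). Exons of Nos1 share 268 bases with Gm26995 on the other strand, which averaged 6.30 normalized counts in controls, and the strand setting of the counting is not given in the sources used here.

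Nos1ap encodes an adaptor protein that binds neuronal nitric oxide synthase (chr1:170302668-170589861, minus strand). It ranged from 101 to 191 normalized counts in Lhx6 controls and from 109 to 233 in mutants. Its log2 difference was 0.21 (95% interval -0.44 to 0.85, adjusted p = 0.778 by limma), and the groups overlapped. It shares 171 exon bases with Gm7694 on the same strand, which averaged 34.9 normalized counts in controls and 25.4 in mutants.

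The kinases that carry the cyclic GMP signal onward had the fewest reads of the members. Prkg1 encodes cGMP-dependent protein kinase I (chr19:30564489-31765033, minus strand). It drew 8, 22, 10 and 6 reads in the Lhx6 controls and 0, 15, 0, 6 and 24 in the mutants. The 2 libraries without a read allow up to 3.71 and 2.79 normalized counts, against 5.13 to 19.5 in the controls, and the mutant with most reads was above all controls. The mean level was 10.4 ± 6.31 normalized counts in controls (SD, n = 4) and 9.88 ± 12.5 in mutants (SD, n = 5). On the log2 scale, where the 2 libraries at 0 weigh most, the difference was -1.04 (95% interval -3.40 to 1.32, adjusted p = 0.699 by limma), against -0.079 by DESeq2, -0.084 by edgeR and -0.46 without mutant 1 or mutant 3.

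Prkg2 encodes the membrane-anchored kinase II (chr5:98929773-99037351, minus strand). Controls had 22.1, 28.4, 20.3 and 2.57 normalized counts and mutants 82.9, 24.1, 19.6, 25.2 and 21.0. The difference of the means came from mutant 1, which was high, and control 4, which was low, while the other 7 embryos lay between 19.6 and 28.4. The resulting log2 difference was 1.002 (95% interval -0.44 to 2.45, adjusted p = 0.554 by limma).

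Of the 3 phosphodiesterase members, Pde9a had the highest level per kb. It encodes a phosphodiesterase with high affinity for cyclic GMP (chr17:31386210-31476310, plus strand), and at 186 normalized counts per kb in Lhx6 controls its level was second to that of Gucy1a1 among the members. Controls had 672, 608, 696 and 660 normalized counts and mutants 405, 541, 572, 636 and 601. Of the mutants 4 were below all controls and mutant 5 lay inside the control range. This gave a log2 difference of -0.27 (95% interval -0.62 to 0.08, adjusted p = 0.507 by limma), an interval of 64.9% to 105% of control.

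Pde5a encodes the cyclic GMP phosphodiesterase that sildenafil inhibits (chr3:122728947-122859374, plus strand). It ranged from 79.8 to 113 normalized counts in Lhx6 controls and from 91.6 to 182 in mutants, with mutants 1, 2 and 5 above all controls. Its log2 difference was 0.29 (95% interval -0.28 to 0.86, adjusted p = 0.656 by limma).

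Pde1a encodes a phosphodiesterase that calcium and calmodulin activate (chr2:79834453-80129458, minus strand). The controls were close together at 103, 124, 113 and 115 normalized counts. The mutants were spread over 84.1, 67.6, 109, 108 and 17.3, with mutant 6 far below the rest. For Pde1a the log2 difference was -0.79 (95% interval -1.79 to 0.21, adjusted p = 0.502 by limma). With the style of the library names as a covariate, which leaves mutant 6 as the 1 mutant compared with the controls, it was -2.64 (adjusted p = 0.0206 by limma), and without mutant 6 it was -0.33.

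**Figure D3:**
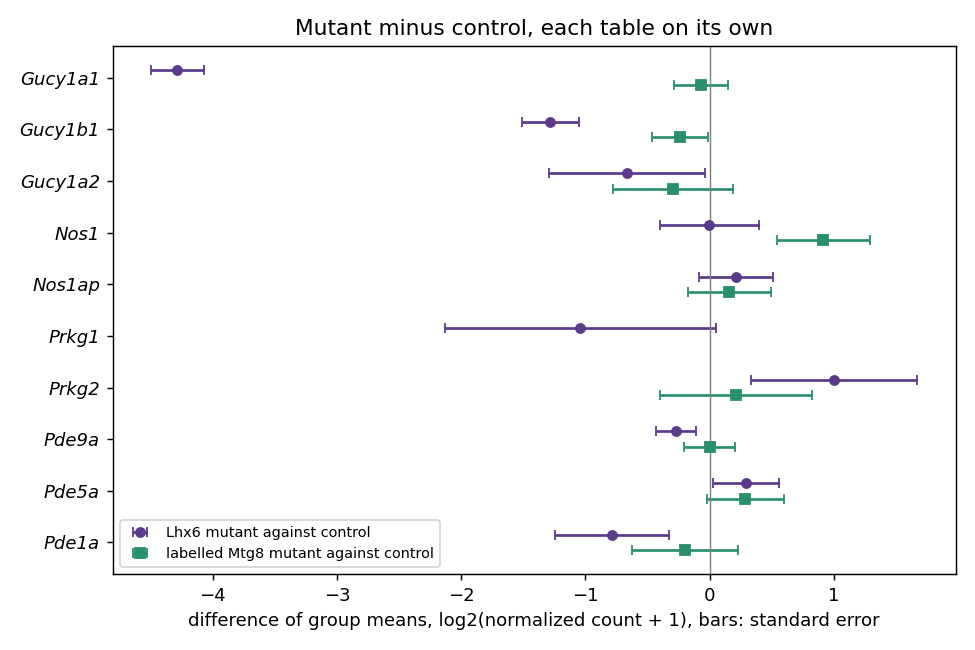
Log2 difference of mutant and control group means for the members in the Lhx6 table (circles) and the Mtg8 table (squares), with standard errors as bars. In the Lhx6 table Gucy1a1 is at -4.28 and Gucy1b1 at -1.28, and in the Mtg8 table all 9 members tested lie between -0.30 and 0.91. Prkg1 was not tested in the Mtg8 table.

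In the Mtg8 table no member was called. Of the 9 members with a mean of at least 10, limma, edgeR and DESeq2 each called 0, where limma called 0%, edgeR 0.0062% and DESeq2 0.186% of all genes. At an unadjusted p under 0.05 limma took 1 member, Nos1, and 5.49% of all genes. The median log2 difference over the members was -0.0015 and over all genes -0.01.

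Gucy1a1 in the Mtg8 controls was at 2676, 3149 and 3612 normalized counts, and in the libraries labelled Mtg8 mutant at 3456, 2207 and 3444. The groups overlapped, and mutant 3 was the lowest embryo. Their log2 difference was -0.07 (95% interval -0.54 to 0.40, adjusted p = 0.970 by limma), an interval of 68.6% to 132% of control. Gucy1b1 was at 551, 461 and 598 in controls and 551, 411 and 404 in the labelled mutants, with a log2 difference of -0.24 (95% interval -0.73 to 0.25, adjusted p = 0.897 by limma). The per-kb ratio of the 2 subunits averaged 3.33 ± 0.562 over the 3 Mtg8 controls (SD) and 3.79 ± 0.912 over the 3 labelled mutants (SD).

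Nos1 was the 1 member whose groups did not overlap in the Mtg8 table, a pattern shown by 10.2% of all genes tested there. Controls had 83.8, 137 and 107 normalized counts and labelled mutants 377, 147 and 149. Mutant 2 stood far above the other 2 labelled mutants, which lay just above the highest control. The log2 difference was 0.91 (SE 0.37), and it did not pass the test (adjusted p = 0.859 by limma, 0.476 by DESeq2). Without mutant 2 the log2 difference was 0.47. Within the library code that mutant 2 shares with controls 1 and 2 it was 1.81. Marker sums of the same libraries also separated, as 12 interneuron markers summed to 53606 to 54917 normalized counts in controls and 32073 to 52392 in labelled mutants, and 8 progenitor markers to 4328 to 4631 and 5530 to 6462. The sum of 8 pyramidal lineage markers overlapped, at 5584 to 13600 and 8540 to 22099, while all 8 log2 differences were above zero (median 0.49), 3 had an unadjusted p under 0.05 by limma, and Neurod2 and Emx1 did not overlap. The part of these marker levels in the Nos1 values was not tested.

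The remaining members overlapped between the Mtg8 groups. Gucy1a2 was at 74.9 to 84.2 normalized counts in controls and 26.7 to 135 in labelled mutants. Nos1ap was at 106 to 146 against 103 to 226, Pde5a at 76.3 to 125 against 90.1 to 130, and Pde1a at 78.3 to 111 against 40.5 to 153. Pde9a was at 986 to 1094 against 823 to 1225. The kinases again had few reads, with 3 to 14 reads for Prkg1 in the controls and 2 to 19 in the labelled mutants, and 7 to 13 and 5 to 28 reads for Prkg2. Prkg1 had a mean below 10 in this table and was not tested. The log2 differences of the other members named in this paragraph ranged from -0.30 to 0.28, with adjusted p-values from 0.908 to 0.999 by limma.

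Side by side, the log2 difference of Gucy1a1 was -4.28 in the Lhx6 comparison and -0.07 in the Mtg8 comparison, and that of Gucy1b1 was -1.28 and -0.24. The difference between the 2 contrasts was not tested, since the tables were normalized apart and no embryo is in both. On the RPM scale, which divides reads by the total of each library, Gucy1a1 was at 83.5 to 112 in Lhx6 controls, 3.54 to 6.27 in Lhx6 mutants, 148 to 188 in Mtg8 controls and 123 to 204 in labelled Mtg8 mutants. The controls of the 2 tables thus did not overlap for this gene, and the Mtg8 controls were higher. Gucy1b1 likewise averaged 17.4 ± 2.90 RPM over the 4 Lhx6 controls (SD) and 28.7 ± 3.61 over the 3 Mtg8 controls (SD), with no overlap. The series labels do not state what sets the 2 control groups apart.

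The log2 differences of the genes around Gucy1a1 did not share one sign in Lhx6 mutants. Within 500 kb of its ends, 4 other genes had a mean of at least 10. Npy2r, a neuropeptide Y receptor gene 402 kb away, went from 362 ± 90.4 (SD, n = 4) to 114 ± 98.5 normalized counts (SD, n = 5), a log2 difference of -2.09 that limma did not call (adjusted p = 0.0982) and DESeq2 did (0.0401). Map9, which encodes a microtubule-associated protein and starts 212 kb away, had a log2 difference of 0.42 (adjusted p = 0.314 by limma). Ctso, a cathepsin gene 213 kb away on the side of Gucy1b1, had one of 0.14 (adjusted p = 0.884 by limma). In the Mtg8 table Npy2r had a log2 difference of -1.42 (adjusted p = 0.351 by limma, 3.04e-04 by DESeq2), while Gucy1a1 and Gucy1b1 between Npy2r and Ctso were at -0.07 and -0.24. Map9 was at -0.61 there and Ctso at 0.84 (adjusted p = 0.859 by limma for both). The Ctso groups did not overlap, as for 10.2% of all genes tested in that table.

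**Figure D4:**
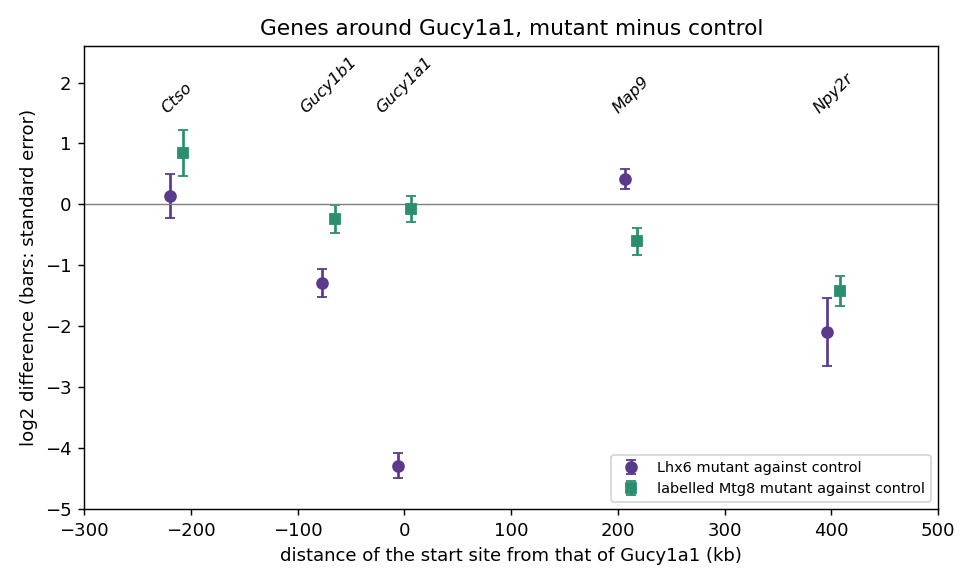
Log2 difference of mutant and control means, with standard errors, for the 5 tested genes within 500 kb of the ends of Gucy1a1, placed by the distance of their start sites from that of Gucy1a1. Points of the 2 tables are offset sideways by a few kb. In the Lhx6 table Gucy1a1 (-4.28), Npy2r (-2.09) and Gucy1b1 (-1.28) lie below zero and Map9 (0.42) and Ctso (0.14) above it.

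Across the 9 Lhx6 libraries, the genes whose log2 levels followed Gucy1a1 most closely were Lhx6 itself (Pearson r = 0.99), Sst, which encodes somatostatin (0.99), Syndig1 (0.99), Chl1 (0.99) and Thbs1 (0.98). Gucy1b1 ranked 42nd of all genes (r = 0.94), and the next member was Pde9a at rank 1069 (r = 0.64). The libraries form 2 separate sets for Gucy1a1, so r here mostly orders genes by how cleanly the genotypes separate, and it is given as a description. Sst went from 11499 ± 859 (SD, n = 4) to 1388 ± 192 normalized counts (SD, n = 5).

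The wider pathway gave no calls by limma or edgeR in the Lhx6 table, where 12.7% of all genes had an unadjusted limma p under 0.05 and the median log2 difference of all genes was -0.04. Of 13 genes for the other nitric oxide synthases, guanylate cyclases and natriuretic peptide signalling, 3 had a mean of at least 10 (Gucy1b2, Gucy2e and Npr2), with a median log2 difference of 0.75, and 0 had an unadjusted p under 0.05. Gucy2e reached that mean through the mutants alone (4.12 normalized counts in controls, 20.8 ± 24.8 in mutants, SD), so nothing is read from this median. Of 23 genes for binding partners, cofactor synthesis and arginine supply of the synthases, 19 were tested, with a median of 0.05, and 2 had an unadjusted p under 0.05. Of 15 genes for cyclic GMP-gated channels, exporters and kinase substrates, 6 were tested, with a median of -0.13, and 2 had an unadjusted p under 0.05. DESeq2 called 0 genes of these 3 lists. Of 21 other phosphodiesterase genes 11 were tested, with a median of 0.21 and 9 of the 11 above zero, and 3 had an unadjusted p under 0.05 by limma. DESeq2 called 2 of them higher, against 3.19% of all genes. These were Pde3a, whose enzyme splits cyclic AMP and is inhibited by cyclic GMP (82.5 to 179 normalized counts, log2 difference 1.15, adjusted p = 0.0857 by limma and 0.0121 by DESeq2), and the cyclic AMP phosphodiesterase gene Pde4d (243 to 425, log2 difference 0.77, adjusted p = 0.104 by limma and 0.00685 by DESeq2). In the Mtg8 table the same 4 lists had 3, 17, 7 and 13 genes tested, and limma, edgeR and DESeq2 called 0, while 0, 1, 2 and 2 genes had an unadjusted p under 0.05 by limma.

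Vascular smooth muscle, pericytes and endothelium also use this pathway, so markers of other cell types were read beside the members. In the Lhx6 table the 8 mural markers present summed to 156 to 506 normalized counts in controls and 134 to 357 in mutants, and 5 of them (Pdgfrb, Kcnj8, Abcc9, Cspg4 and Anpep) averaged below 10. The 7 endothelial markers summed to 23.9 to 213 and 54.5 to 266, with Cdh5, Flt1, Tek and Esam below 10. Both sums overlapped between genotypes. Microglial markers summed to 38.1 to 147 in controls and 16.5 to 403 in mutants. Pyramidal lineage markers summed to 13713 to 19535 and 11205 to 15585. Limma and edgeR called 0 markers of these 4 kinds in either table, and by limma an unadjusted p under 0.05 was met in the Lhx6 table by 0 mural, 1 endothelial, 0 microglial and 3 pyramidal lineage markers. Of 12 interneuron markers, which summed to 31431 to 41636 in Lhx6 controls and 30736 to 52523 in mutants, Dlx5 and Dlx6 rose and Satb1 fell. Progenitor markers summed to 5795 to 6945 in Lhx6 controls and 5693 to 10726 in mutants, where DESeq2 alone called Sox2, higher. Of the 4 tested markers of mature somatostatin and Nos1 cells, Sst and Npy fell in Lhx6 mutants by limma. Chodl had a log2 difference of -1.86 and Nr4a2 one of 0.85, from 118 to 233 normalized counts, and neither was called (adjusted p = 0.417 and 0.291 by limma). In the Mtg8 table DESeq2 alone called Sst and Npy lower. DESeq2 alone also called the pyramidal lineage markers Neurod2 and Emx1 higher in that table. The mural sum there was 205 to 764 in controls and 279 to 476 in labelled mutants, the endothelial sum 42.5 to 296 and 58.9 to 194, and the microglial sum 6.85 to 919 and 73.4 to 152, all overlapping.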

How the data were processed

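RNA of sorted YFP+ cells was read as single reads of 75 bases. Per the labels and the study's methods, the authors trimmed with fastp 0.20.1, aligned with STAR 2.7b to GRCm38.p6, counted with featureCounts 1.6.4 over GENCODE genes and removed sex-linked genes (0 genes on X or Y are in the tables). The paper gives an uneven spread of the sexes among its controls and mutants as the reason. The part of sex in the values of the remaining genes was not tested. The strand setting is not given in the sources used here. The deposited values are normalized counts (unit: signal), counts that the authors divided by a DESeq2 size factor per library, in 1 table per experiment. The deposited tables also hold the authors' own comparisons as log2 fold changes, a test score and p-values, which were not used.

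All sample columns matched a label. Multiplying back by the size factors gave whole reads for 100% of values (tolerance 0.01), 12218422 to 22053032 per library. The limit for 0 reads (3 reads) covers counting error only. Replicates were compared, and no pair agreed within sampling noise (lowest chi-square per gene 10.7). Chi-square per gene was 13.1 to 22.3 between Lhx6 controls and 16.8 to 122 between Lhx6 mutants, highest for mutants 1 and 3. Between Mtg8 controls it was 10.7 to 27.2, and between labelled Mtg8 mutants 55.3 to 74.5.

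limma 3.58.1 with a mean-variance trend was fitted to log2 values with a pseudocount of 1, keeping genes whose mean reached 10, each table alone. Tests were two-sided, adjusted by Benjamini-Hochberg, and called under 0.05. edgeR 4.0.16 and DESeq2 1.42.0 used the recovered reads. Tested on simulated data for the Lhx6 comparison (16661 genes), limma recovered 94.6% of 93 genes changed by a log2 of 3 and 73.5% of 98 changed by 1.5. For the Mtg8 comparison (16113 genes) it recovered 97.9% of 97 and 67.7% of 96. Each size was planted in 100 genes per comparison, and the shares count only those that kept a mean of at least 10. Unchanged genes made up 6 of 166 limma calls for Lhx6 and 9 of 169 for Mtg8. For edgeR they were 2 of 166 and 7 of 168. For DESeq2, run without the filter, they were 31 of 196 and 24 of 192. Apart from random draws, simulated libraries differed only in depth and genotype effect. Each embryo is 1 library. The members and gene lists were chosen with earlier results of these data known. Named genes were the 10 members, Lhx6 and Runx1t1, list genes called by limma or DESeq2, tested genes within 500 kb of Gucy1a1, and the 5 most correlated with it. Gucy1b2, Gucy2e, Npr2, Chodl, Nr4a2 and markers below the minimum mean were named outside this rule, after their values were seen. Per-kb levels used the gene lengths in the tables, and promoter windows came from RefSeq. Of the interneuron marker list 1 gene is not reported here and is left out of its sums and counts. Python 3.11.15 and R 4.3.3 were used.

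Alternatives were pseudocounts of 0.5 and 10, no filter, a stricter filter (mean of 50), scaling by TMM or to equal totals, no trend, edgeR, DESeq2, a replicate block, library name style, the shared library code, and leaving out each library.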

Additional observations from a re-analysis of the deposited data

Results flagged for a closer look

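Prkg2 in Lhx6 mutant 1 stood at 82.9 normalized counts, far above the other 4 mutants of its group, of which the nearest was at 25.2. The gap was 0.911 of the range of the group. It rests on 67 reads, and chance alone puts about 1 in 20 groups past the limit used.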

How the results depend on the processing

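Gucy1a1 in the Lhx6 table kept its direction in all 21 alternatives (log2 difference -4.40 to -4.13), and Gucy1b1 kept its direction in all 21 (-1.39 to -0.88) and lost its call in 4. The 3 replicate numbers shared by Lhx6 groups correlated at -0.15, 0.0017 and 0.07, which shows no pairing of embryos by number there. Only 2 numbers are shared by Mtg8 groups (0.14 and 0.16). These lay above all Mtg8 pairs of unlike number (highest 0.078), and whether they pair embryos was not tested. With the number as a replicate block, limma called 86 genes for Lhx6 (without the block 286) and 100 for Mtg8 (without it 0), and 1 Lhx6 member, which is Gucy1a1, chosen by this value, so 0 of the other 9 (Gucy1b1 at -1.31, adjusted p = 0.283). Genes called in the Lhx6 table were 811 by DESeq2 over the unfiltered table (796 among genes with a mean of at least 10) and 57 with name style as a covariate. Leaving out 1 library gave 159 to 492 (159, 174 and 173 without controls 1, 2 and 4, 492 without mutant 6) and 1 to 2 members counting Gucy1a1, so 0 to 1 of the other 9 (0 without control 1 or control 4). Genes called in the Mtg8 table were 1 with no filter, 2 at a minimum mean of 50, 1 by edgeR, 30 by DESeq2, and 0 to 87 without 1 library (87 without mutant 2). The cause was not tested.

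Some differences changed sign. In the Lhx6 table Nos1 was 0.0089 with a pseudocount of 10, 0.077 by edgeR, 0.087 by DESeq2, 0.62 with name style, and -0.21 to 0.35 without 1 library. With name style Nos1ap was -0.25, Prkg1 1.58 and Pde5a -0.13. In the Mtg8 table Pde9a was 0.030 with TMM factors, 0.070 with equal totals, 0.030 by edgeR, 0.014 by DESeq2, 0.015 with the replicate block, 0.072 with name style, and -0.13 to 0.16 without 1 library. Gucy1a1 was 0.00070 with equal totals, 0.033 with the block and -0.18 to 0.14 without 1 library, and Gucy1a2 0.28 with the block and -0.81 to 0.34. Prkg2 was -0.10 and Pde1a 0.090 with name style. Without 1 library Pde1a ran from -0.62 to 0.32 and Nos1ap from -0.20 to 0.36. Within 1 library code, a value with no test, the sign turned in the Lhx6 table for Nos1 (0.46), Nos1ap (-0.20), Prkg1 (1.20), Prkg2 (-0.24) and Pde5a (-0.048), and in the Mtg8 table for Gucy1a1 (0.25), Gucy1b1 (0.13), Nos1ap (-0.36), Prkg2 (-0.46), Pde1a (0.50) and Pde9a (0.24). None of the tested values passed the threshold, and the cause was not tested. Depth limits Prkg1 (0 to 24 reads per library) and Prkg2 (3 to 67).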
